A study of Mus musculus with 6 samples.

Results

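The insulin-like growth factor (IGF) axis was followed in mouse hearts through 10 genes that encode its ligands (Igf1, Igf2), its receptors (Igf1r, Igf2r) and its binding proteins (Igfbp2 to Igfbp7). The members were all features of the array table whose gene symbol equals one of these names, which gave 10 of 18138 symbols and 15 of 25697 probes. Hearts of 3 hSRY-ON and 3 hSRY-OFF males at postnatal day 6 were compared, all of FVB strain by the labels (FVB/N in the methods), and total RNA of each heart was hybridized to an Illumina MouseRef-8 v2.0 BeadChip. The hSRY-ON mice carried the recombined Signalox-hSRY transgene, a single copy at the H11 locus of chromosome 11 in which the ubiquitously active CAG promoter drives FLAG-tagged human SRY together with EGFP. Recombination was made in the early embryo by Cre left in the oocytes of Ddx4-Cre mothers, and the hSRY-ON mice used for arrays did not themselves inherit Ddx4-Cre. For the hSRY-OFF group the methods name Signalox-hSRY mice without recombination, in which the same promoter drives DsRed2, while elsewhere the study calls its controls Ddx4-Cre only or non-transgenic littermates. The exact control genotype of these 3 hearts is therefore unsure. Transgene expression was not tied to the heart or to one cell type, and neither the human transgene nor the weight of the pups was analysed here. The question addressed is how the axis that governs perinatal growth stood in the hearts of pups in which SRY was switched on throughout the body.

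IGF-I and IGF-II are small secreted growth factors that signal through the tyrosine kinase receptor encoded by Igf1r, whereas the receptor encoded by Igf2r carries no such kinase and removes IGF-II from the cell surface for degradation in lysosomes. The binding proteins hold IGFs in the blood and in the matrix, where they prolong the life of the ligands and limit or favour their access to the receptor, and several of them also act without IGF. In the fetal and newborn heart, IGF signalling is known for cardiomyocyte proliferation and growth. Igf2 is an imprinted, largely fetal growth factor gene whose expression falls after birth in rodents, and Igf1 is the target through which growth hormone drives postnatal growth.

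A probe entered the test when at least 3 of the 6 arrays detected it, and a gene was read from its brightest tested probe, the one with the highest mean over the 6 arrays. Levels below are normalized log2 intensities, and differences are hSRY-ON minus hSRY-OFF on that scale. All 10 genes had a tested probe, and 14 of the 15 probes were tested. With limma and a Benjamini-Hochberg adjusted p under 0.05, 4 of the 10 genes were higher in hSRY-ON hearts (Igf1r, Igf2r, Igfbp2 and Igfbp3), none was lower and 6 were not called. Over all tested genes the share called higher was 14.9% and the share called lower was 13.9%, with 28.8% called in either direction (27.5% of probes). The median difference of the 10 genes was 0.43, beside 0.0026 over the 9660 tested genes. In 6 member genes every hSRY-ON heart lay above every hSRY-OFF heart, and in 1, Igfbp4, every one lay below, against 24.9% and 22% of all tested genes. Igfbp2 passed the filter only through the hSRY-ON arrays and so had to differ, which leaves 3 of the other 9 genes called. The median of 0.43 and the 6 genes above the controls also include Igfbp2 and are raised by it.

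**Figure D1:**
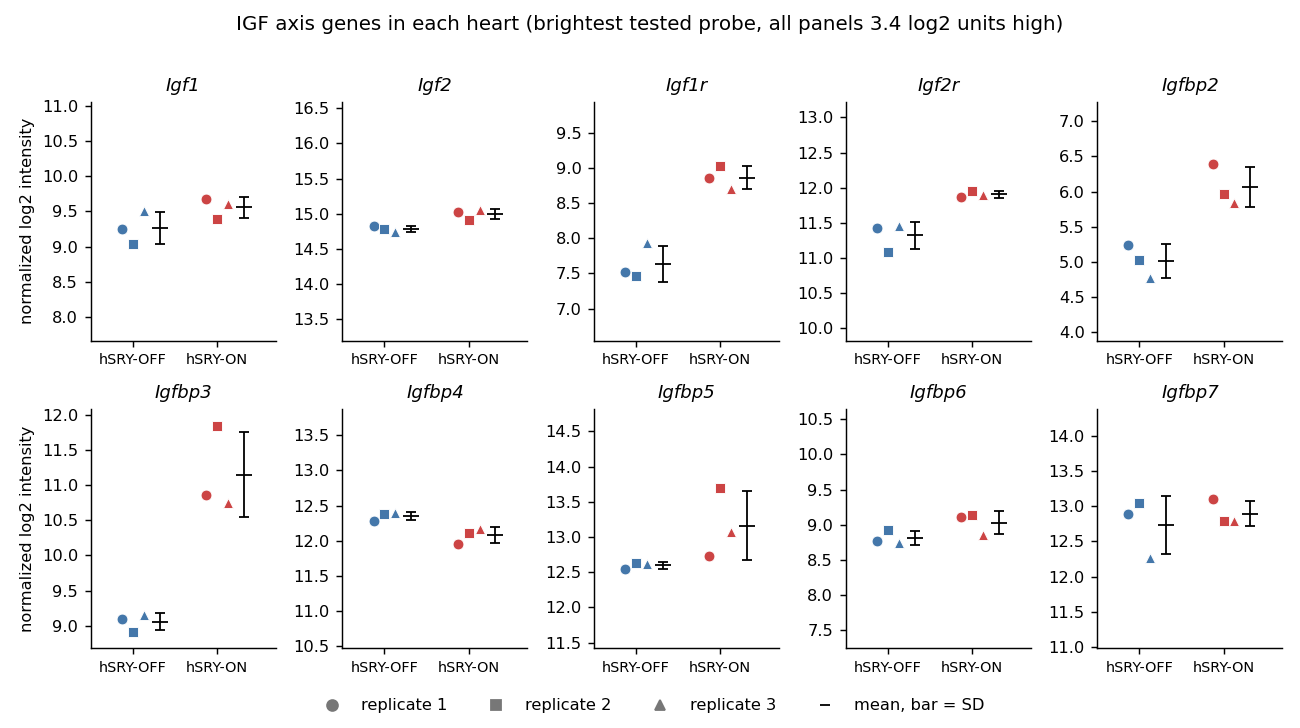
Normalized log2 intensity (vertical axes, each spanning the same number of log2 units) of the brightest tested probe of each IGF axis gene in the 3 hSRY-OFF (blue) and 3 hSRY-ON (red) hearts, with marker shapes for replicate numbers and the mean with SD as a black bar. Igfbp3 is the gene with the widest gap between the groups, 1.60 between the highest hSRY-OFF and the lowest hSRY-ON heart, followed by Igf1r with 0.77, while Igf1, Igfbp6 and Igfbp7 overlap.

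The arrays were of like quality, with 47.2% to 51.3% of probes detected on each. Correlations of normalized values were 0.983 to 0.992 within hSRY-OFF, 0.985 to 0.988 within hSRY-ON and 0.940 to 0.960 between the groups. Replicate 3 of hSRY-OFF was the dimmest array, with a mean intensity of 631 beside 723 to 939 on the others. The hearts were labelled as separate samples, but nothing in the labels says whether they came from separate litters, so the p-values measure only the spread between these samples. All 9 cardiomyocyte markers on the array were detected.

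The ligands are described first. Igf1, read by its brightest probe, had values of 9.25, 9.04 and 9.50 in the hSRY-OFF hearts and 9.68, 9.39 and 9.60 in the hSRY-ON hearts. The lowest hSRY-ON heart lay below the highest hSRY-OFF heart, so the groups overlapped. The means were 9.26 ± 0.23 and 9.56 ± 0.15 (SD, n = 3 each), a difference of 0.29 (SE 0.16) with an adjusted p of 0.201 by limma. The value depended on single hearts, as it was 0.18 without replicate 2 of hSRY-OFF and 0.41 without replicate 3 of that group. The second Igf1 probe, a dim one close to background with intensities between 165 and 206 on the linear scale, had 5.66, 5.34 and 5.72 in hSRY-OFF and 6.16, 6.20 and 5.83 in hSRY-ON hearts. Here the groups did not overlap, and the difference of 0.49 (SE 0.16) had an adjusted p of 0.0568. Neither Igf1 probe passed the threshold, and the 95% interval of the brighter one ran from -0.069 to 0.66.

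Igf2 was bright on every array, at 55.8% to 71.1% of the highest intensity there, and thus below the top of the measured range. Its normalized level was 14.83, 14.78 and 14.74 in the hSRY-OFF hearts and 15.03, 14.92 and 15.05 in the hSRY-ON hearts. After normalization the groups were tight and did not overlap, with SDs of 0.05 and 0.07, but the deposited intensities overlapped, at 32420, 33720 and 23995 in hSRY-OFF and 31674, 30703 and 31337 in hSRY-ON. The difference was small, 0.21 (SE 0.11; a ratio of 1.16) with an adjusted p of 0.192, and it was called higher only when limma's variance was allowed to follow intensity and was estimated robustly (adjusted p = 0.0207). Without normalization between arrays it was 0.073 (adjusted p = 0.934).

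RefSeq promoter windows on build GRCm38.p6, covering 250 bases before and 50 bases after an annotated transcription start, were found for all 10 genes (14 windows). They were searched on both strands for AACAAT, the core of SRY and SOX binding sites, for GTAAACA, the forkhead site that FoxO factors recognize, and for ACGTG, the core of hypoxia-inducible factor sites that also lies within E-boxes of the CACGTG type. Over all 32851 windows of this length, 10.7% held AACAAT, 3.65% held GTAAACA and 19.6% held ACGTG. Among the 14 member windows AACAAT was met in 1, ACGTG in 4 and GTAAACA in 0. The window with AACAAT is 1 of 4 annotated for Igf2. It is shown because it is the only member window with the core of the transgene's own factor, and the match is on the opposite strand, so that it reads as ATTGTT in capitals, its first base at position -55 from the start.
Igf2 at chr7:142661222-142661521, minus strand: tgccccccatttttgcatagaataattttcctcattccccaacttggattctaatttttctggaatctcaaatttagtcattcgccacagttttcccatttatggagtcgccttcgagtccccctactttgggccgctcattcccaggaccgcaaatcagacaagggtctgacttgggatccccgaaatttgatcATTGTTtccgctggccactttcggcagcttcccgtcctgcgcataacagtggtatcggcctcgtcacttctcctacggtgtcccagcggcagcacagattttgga

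The receptors rose together. Igf1r, the signalling receptor for both ligands, had levels of 7.52, 7.46 and 7.93 in the hSRY-OFF hearts and 8.85, 9.02 and 8.70 in the hSRY-ON hearts. All 3 hSRY-ON hearts were above all 3 controls, and the gap of 0.77 between the groups was wider than the range within either group, 0.47 and 0.32. The means were 7.64 ± 0.25 and 8.86 ± 0.16 (SD, n = 3 each), and the difference of 1.22 (SE 0.16, 95% interval 0.84 to 1.60), which is 2.33-fold, had an adjusted p of 0.00186. The rise was visible before any normalization, as the deposited intensities were 360, 375 and 302 in hSRY-OFF and 556, 657 and 520 in hSRY-ON. Igf1r kept its call in 16 of 16 alternative settings. Its promoter window is printed because it belongs to the receptor with the larger change. It held none of the 3 motifs and was rich in G and C, with 76.0% GC and 48 CpG beside medians of 52.7% and 7 over all windows, and it therefore has no capitals.
Igf1r at chr7:67952007-67952306, plus strand: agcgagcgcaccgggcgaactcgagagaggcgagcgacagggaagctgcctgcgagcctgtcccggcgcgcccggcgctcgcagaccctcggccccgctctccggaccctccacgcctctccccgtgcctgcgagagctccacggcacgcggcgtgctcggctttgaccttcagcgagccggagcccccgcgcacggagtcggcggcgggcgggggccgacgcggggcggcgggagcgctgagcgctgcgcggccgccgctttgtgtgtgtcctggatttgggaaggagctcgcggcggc

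Igf2r, which clears IGF-II, was read by a pair of probes of similar brightness. By the brighter one the hSRY-OFF hearts were at 11.42, 11.09 and 11.45 and the hSRY-ON hearts at 11.87, 11.95 and 11.89. The groups were apart, with the spread in hSRY-ON (SD 0.05) smaller than in hSRY-OFF (SD 0.20), and the difference was 0.58 (SE 0.14, 1.5-fold) with an adjusted p of 0.0168. The second probe was at 11.39, 11.38 and 11.39 in hSRY-OFF and 11.74, 11.82 and 11.61 in hSRY-ON hearts. It moved the same way and did not overlap either, but its difference of 0.34 (SE 0.11) missed the threshold at an adjusted p of 0.0656. The call of the brighter probe was lost in 1 of 16 alternatives, when the arrays were not normalized to each other (0.48, adjusted p = 0.338). The window of Igf2r is shown for its ACGTG matches. It has 4, counted on both strands, which form a pair of CACGTG palindromes (in capitals) ahead of the transcription start.
Igf2r at chr17:12769657-12769956, minus strand: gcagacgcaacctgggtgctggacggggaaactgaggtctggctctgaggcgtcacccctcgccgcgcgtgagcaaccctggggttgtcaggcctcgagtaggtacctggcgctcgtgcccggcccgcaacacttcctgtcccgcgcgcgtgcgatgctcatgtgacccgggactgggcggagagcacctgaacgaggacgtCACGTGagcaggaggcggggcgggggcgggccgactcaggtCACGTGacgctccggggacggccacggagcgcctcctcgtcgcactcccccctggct

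Of the binding proteins, Igfbp3 was the member with the largest difference. IGFBP-3 is the main carrier of IGFs in the circulation, where it forms a ternary complex with the acid-labile subunit, and it is also made locally and can restrain growth. Its levels were 9.10, 8.92 and 9.15 in the hSRY-OFF hearts and 10.85, 11.84 and 10.75 in the hSRY-ON hearts. Every hSRY-ON heart was above every control, with replicate 2 of hSRY-ON standing well above the other two of its group. The means were 9.06 ± 0.12 and 11.15 ± 0.60 (SD, n = 3 each), a difference of 2.09 (SE 0.28, 95% interval 1.44 to 2.74) or 4.26-fold, with an adjusted p of 0.00177. The deposited intensities were 784, 753 and 542 against 1849, 3801 and 1748. Leaving out replicate 2 of hSRY-ON lowered the difference to 1.74, and the call was kept in 16 of 16 alternatives. The promoter window of Igfbp3 follows as that of the most changed member. None of the 3 motifs occurs in it, so it is printed without capitals, and its GC content is 71.7% with 37 CpG.
Igfbp3 at chr11:7213874-7214173, minus strand: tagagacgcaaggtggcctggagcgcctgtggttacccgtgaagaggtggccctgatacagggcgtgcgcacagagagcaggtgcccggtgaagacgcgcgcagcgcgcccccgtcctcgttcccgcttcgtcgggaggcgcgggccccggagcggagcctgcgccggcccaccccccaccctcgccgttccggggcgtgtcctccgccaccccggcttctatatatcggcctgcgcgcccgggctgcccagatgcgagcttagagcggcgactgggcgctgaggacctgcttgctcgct

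Igfbp2, a binding protein abundant in fetal tissues, was at the edge of detection. By its brighter probe the levels were 5.25, 5.03 and 4.77 in hSRY-OFF and 6.39, 5.97 and 5.84 in hSRY-ON hearts. The probe was not well above background on any hSRY-OFF array and was detected on all 3 hSRY-ON arrays. Its rise is thus given as a bound, at least 1.56-fold by the group means. The bound is taken against the higher of the control value and the lowest signal detected on each array. The adjusted p of 0.00596 is that of the fitted difference of 1.05 by limma. Bounds here and below take no account of the spread between hearts, and the adjusted p-values beside them are those of the fitted differences. The second probe showed the same detection pattern, with 5.28, 5.04 and 4.93 against 6.34, 5.54 and 5.69, and was at least 1.35-fold higher (adjusted p = 0.0357). The call of the second probe was lost in 6 of the 11 alternatives that tested it, and the brighter probe kept its call in the 12 that tested it. With a filter on detection both probes entered only through the hSRY-ON arrays, so their calls were fixed in part by the filter and support nothing. Under detection on all arrays, and without any 1 of the hSRY-ON hearts, Igfbp2 was not tested.

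Igfbp5 and Igfbp4, both secreted by stromal and muscle cells, were bright and went in different directions without a call. Igfbp5, which binds the extracellular matrix, was at 12.54, 12.63 and 12.62 in hSRY-OFF and at 12.73, 13.69 and 13.07 in hSRY-ON hearts. The controls were within 0.09 of each other and below all hSRY-ON hearts, which spread over 0.96. The difference was 0.57 (SE 0.23, 1.48-fold) with an adjusted p of 0.109, and the value depended on single hearts, as it was 0.30 without replicate 2 of hSRY-ON and 0.78, then past the threshold (adjusted p = 0.0415), without replicate 1 of hSRY-ON. Igfbp4, which sequesters IGFs until the protease PAPP-A cleaves it, was at 12.28, 12.39 and 12.39 in hSRY-OFF and at 11.95, 12.11 and 12.17 in hSRY-ON hearts. It was the only member in which the hSRY-ON hearts were all lower, and its second probe was lower in all 3 hearts too. The differences were -0.28 (SE 0.12, adjusted p = 0.124) and -0.26 (SE 0.14, adjusted p = 0.211). The brighter Igfbp4 probe was called lower without background correction (-0.27, adjusted p = 0.0441) and with limma's intensity trend and robust variance (adjusted p = 0.0386).

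Igfbp6 and Igfbp7 did not separate the groups. Igfbp6, which prefers IGF-II over IGF-I, was at 8.77, 8.93 and 8.75 in hSRY-OFF and at 9.11, 9.14 and 8.85 in hSRY-ON hearts, a difference of 0.21 (SE 0.13) with an adjusted p of 0.262. Igfbp7, a low-affinity relative found around blood vessels, was at 12.89, 13.05 and 12.26 in hSRY-OFF and at 13.10, 12.79 and 12.80 in hSRY-ON hearts. Its difference of 0.16 (SE 0.22, adjusted p = 0.625) rested on replicate 3 of hSRY-OFF, the dimmest array, and was -0.077 without that heart. A second Igfbp7 probe was detected on no array and was not tested.

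**Figure D2:**
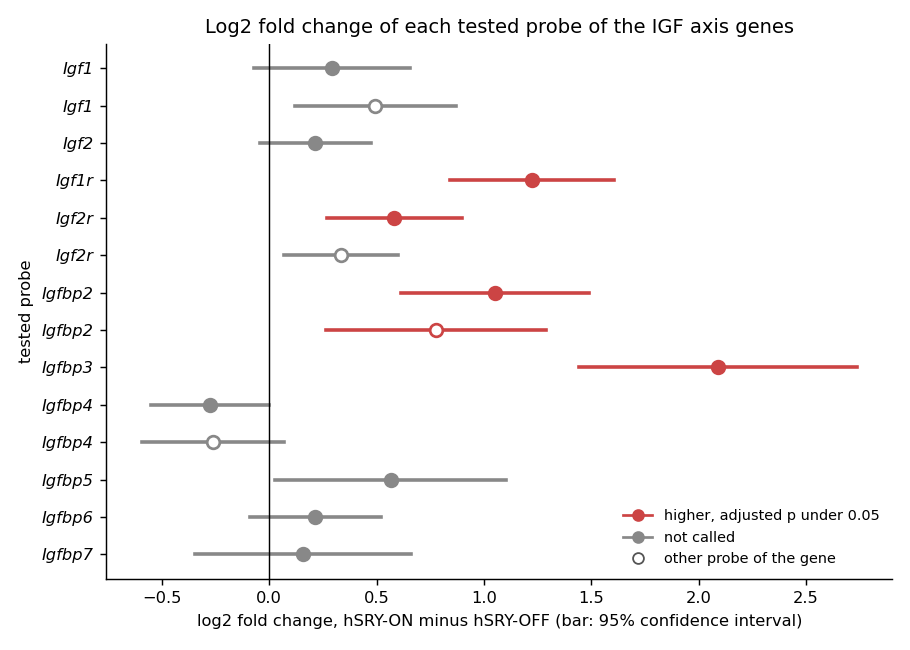
Log2 fold change of hSRY-ON over hSRY-OFF (horizontal axis) with its 95% confidence interval for the 14 tested probes of the IGF axis genes, where filled circles are the brightest tested probe of a gene, open circles its other probe, and red marks an adjusted p under 0.05. Igfbp3 (2.09), Igf1r (1.22), Igf2r (0.58) and both probes of Igfbp2 are red, the Igfbp2 points being fitted values of a gene not above background in hSRY-OFF, and Igfbp4 lies to the left of 0.

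Replicate 2 of hSRY-ON was the highest of its group for 5 of the 10 genes (Igf1r, Igf2r, Igfbp3, Igfbp5 and Igfbp6), whereas Igf1, Igfbp2 and Igfbp7 were highest in replicate 1 and Igf2 and Igfbp4 in replicate 3. With 3 hearts against 3, an exact two-sided permutation test of a single gene cannot go below p = 0.1, so calls rest on the spread that limma shares across probes.

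**Figure D3:**
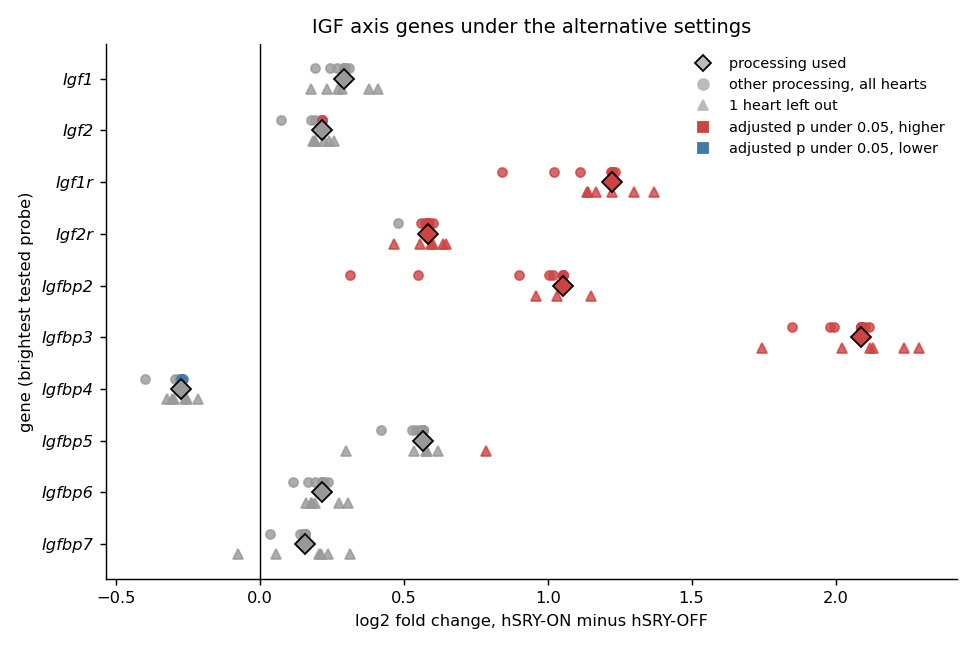
Log2 fold change of hSRY-ON over hSRY-OFF (horizontal axis) of the brightest tested probe of each IGF axis gene in the processing used here (diamonds), in 10 other settings (circles) and with 1 heart left out (triangles), coloured where the adjusted p was under 0.05. Igf1r and Igfbp3 are red throughout, Igf2r in all but 1 setting, and Igfbp7 crosses 0 in 1 setting.

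Genes around the axis were taken from 6 lists covering 108 genes on the array, of which 76 were tested, 15 were called higher (19.7% of those tested) and 13 lower (17.1%), beside 14.9% and 13.9% of all tested genes. Igfals and Akt2, both called lower, passed the filter only through the hSRY-OFF arrays and so had to differ, which leaves 11 of the other 74 genes called lower. The first list holds partners that act on IGFs directly, and of its 7 tested genes 4 were higher and 3 lower (2 of 6 lower without Igfals). Stc2, stanniocalcin-2, an inhibitor of the PAPP-A proteases that free IGFs from IGFBP-4 and IGFBP-5, was at 7.23, 7.17 and 7.57 in hSRY-OFF and at 9.73, 9.85 and 8.70 in hSRY-ON hearts. All 3 hSRY-ON hearts were above the controls, by 2.11 on average (SE 0.30, 4.31-fold, adjusted p = 0.00233). The mRNA-binding proteins that attach to Igf2 transcripts rose, Igf2bp3 by 1.36 (adjusted p = 0.00122; 0.85 by its other probe) and Igf2bp2 by 0.73 (adjusted p = 0.00829), while Igf2bp1 was detected on no array.

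The serine proteases that can cut IGF binding proteins moved apart. Htra3 was higher by 0.78 (adjusted p = 0.0158; 1.43 by its other probe), and Htra1 was lower by both probes, at 11.88, 11.88 and 11.79 in hSRY-OFF and 10.65, 10.32 and 10.69 in hSRY-ON hearts (-1.30, SE 0.14, adjusted p = 0.000793). Igfals, which encodes the acid-labile subunit that joins IGFBP-3 in the ternary complex, was detected on all hSRY-OFF arrays and was not above background on any hSRY-ON array. It was at least 1.27-fold lower (adjusted p = 0.00995 by limma, means of 5.67 and 5.05), but it passed the filter only through the hSRY-OFF arrays and so had to differ. Igfbpl1, an IGF binding protein-like gene, was also lower (-1.09, adjusted p = 0.00278). Igfbp1, which lies next to Igfbp3 on chromosome 11, and Stc1 were detected on no array. Pappa and Pappa2 had no probe under these symbols.

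In the growth hormone list 1 of 9 tested genes was higher (11.1%) and 2 were lower (22.2%), beside 14.9% and 13.9% of all tested genes. Ghr, the growth hormone receptor, was at 10.82, 10.84 and 10.65 in hSRY-OFF and at 9.97, 9.85 and 9.63 in hSRY-ON hearts, and the groups did not overlap (-0.95, SE 0.14, adjusted p = 0.00237; -0.999 by its other probe). Stat5a, one of the transcription factors downstream of that receptor, was lower by its brighter probe (-1.02, adjusted p = 0.00403), and its other probe missed the threshold (-0.75, adjusted p = 0.0696). Jak2, the kinase bound to the receptor, was higher by its brighter probe (0.78, adjusted p = 0.0187) and not called by its other tested probe (0.47, adjusted p = 0.14). The feedback inhibitors Cish (-0.91, adjusted p = 0.0654) and Socs2 (-0.08, adjusted p = 0.76) were not called, and Gh, Ghrh and Stat5b were detected on no array.

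Among genes that act at the insulin and IGF receptors, 3 of 8 tested were higher (37.5%) and 1 was lower (12.5%). The shares over all tested genes were 14.9% and 13.9%. Grb14, an adaptor that binds and inhibits the insulin receptor, had the largest fall of all pathway lists in the processing used here. This rank depended on the background correction. Without it Grb14 was at -1.04 beside -1.51 for Trim63, and with normexp and an offset of 50 at -1.54 beside -1.66. Grb14 was detected on only 2 of the 3 hSRY-ON arrays, and it kept its call in the 15 alternatives that tested it. It was at 7.83, 8.14 and 7.37 in hSRY-OFF and at 5.71, 4.94 and 5.30 in hSRY-ON hearts (-2.47, SE 0.25, adjusted p = 0.000716). By its other probe, which passed the filter only through the hSRY-OFF arrays and so had to differ, Grb14 was at least 2.11-fold lower. Its relative Grb10, an imprinted inhibitor of the same receptors, moved the other way, from 13.14, 13.18 and 13.08 to 13.63, 13.71 and 13.73 (0.56, SE 0.11, adjusted p = 0.00859). Enpp1, a cell surface enzyme also known to inhibit the insulin receptor, rose by 1.55 (adjusted p = 0.00193) and by 1.39 with its other probe. Ptpn11, the phosphatase SHP2 that links receptors to Ras, was higher by all 3 tested probes (0.66, adjusted p = 0.0116, for the brightest). Insr (-0.28, adjusted p = 0.395) and the docking protein gene Irs2 (1.21, adjusted p = 0.162) were not called, with replicate 1 of hSRY-OFF at 6.57 for Irs2 beside 8.72 and 8.95 in the other controls. Irs1 and Ins2, the neighbour of Igf2, were detected on no array.

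Downstream, calls in either direction came to 20.0% in the PI3K, Akt and mTOR list and 25.0% in the Ras and MAP kinase list. Neither exceeded the 28.8% over all tested genes (14.9% higher and 13.9% lower). In the list of FoxO factors and their targets, described below, calls came to 45.5%. In the PI3K, Akt and mTOR list 3 of 25 tested genes were higher, 2 were lower (1 of 24 without Akt2) and 20 were not called, with a median of 0.17. The genes that rose most were Pik3cb and Ddit4, whose order changed between settings. Pik3cb is a catalytic subunit of PI3K and was higher by 1.26 (SE 0.24, adjusted p = 0.00745), and Ddit4, a stress-induced inhibitor of mTOR, was higher by 1.25 (SE 0.39, adjusted p = 0.0475), a value that was 0.77 without replicate 2 of hSRY-ON. The genes called lower were Tsc2, a subunit of the complex that restrains mTOR (-0.42, SE 0.12, adjusted p = 0.0329, and not called by its other probe at -0.36, adjusted p = 0.0542), and Akt2, which was not above background in hSRY-ON and at least 1.28-fold lower (adjusted p = 0.0153; means of 5.69 and 4.99). In the Ras and MAP kinase list 4 of 16 were higher and none was lower. Dusp4, a phosphatase that inactivates ERK, was at 5.28, 5.21 and 5.62 in hSRY-OFF and at 8.04, 8.34 and 7.11 in hSRY-ON hearts (2.46, SE 0.30, adjusted p = 0.00132), and only 1 of the 3 hSRY-OFF arrays detected it.

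FoxO transcription factors are held inactive by Akt. The list of the factors with genes they are known to induce had 0 of 11 tested genes higher by their brightest probes. It had 5 lower (Trim63, Bcl2l11, Pdk4, Sod2 and Foxo6), or 45.5%. Over all tested genes 14.9% were called higher and 13.9% lower. Foxo6 was detected on only 1 of the 3 hSRY-ON arrays, and its call was lost without background correction (-0.22, adjusted p = 0.058 by limma). The largest decrease was in Trim63, the muscle ubiquitin ligase MuRF1, at 10.49, 10.50 and 10.56 in hSRY-OFF and 8.29, 9.03 and 8.85 in hSRY-ON hearts (-1.79, SE 0.19, adjusted p = 0.000815). The members of the list did not move as one, as Foxo1 (0.06, adjusted p = 0.768) and the ubiquitin ligase gene Fbxo32 (0.57, adjusted p = 0.173) were not called. Sesn1, a stress-response gene, was not called by its brightest probe (0.81, adjusted p = 0.176) and was called higher by its other probe (1.28, SE 0.40, adjusted p = 0.0479). Foxo3 and Foxo4 were detected on no array.

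**Figure D4:**
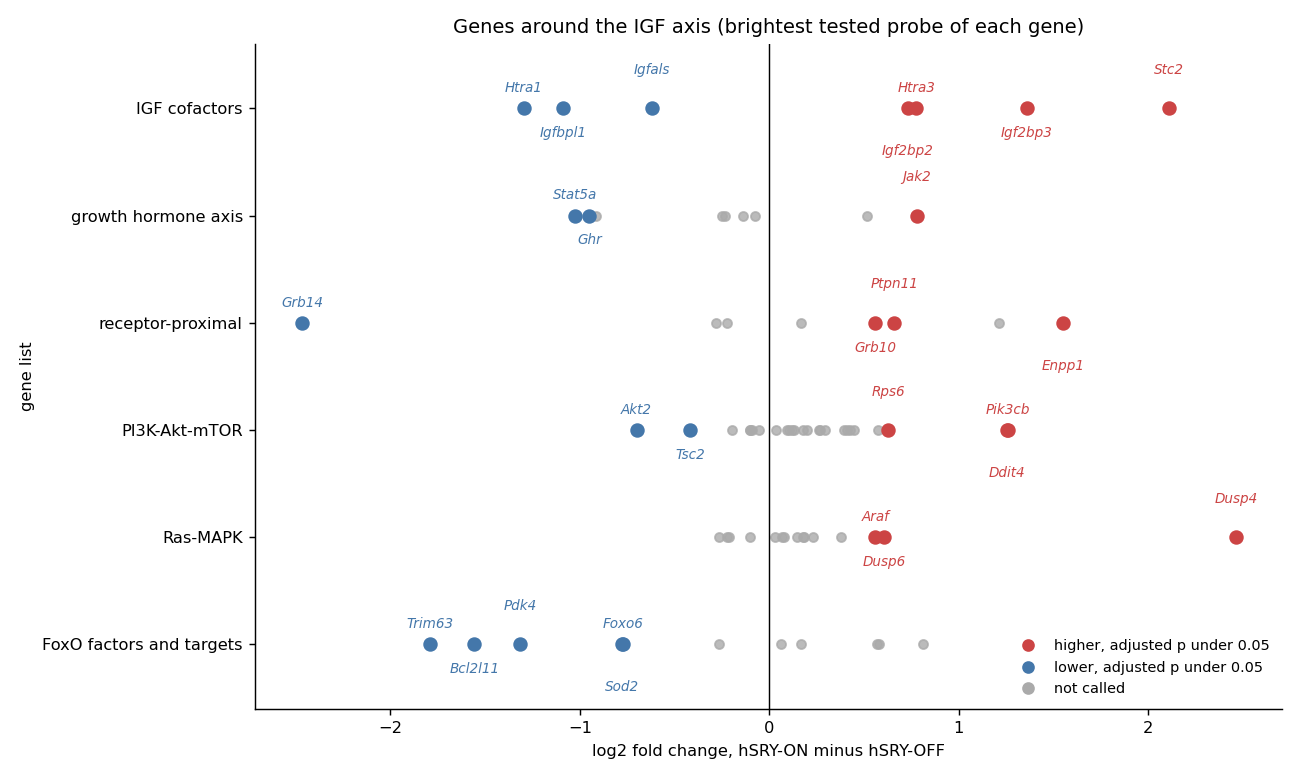
Log2 fold change of hSRY-ON over hSRY-OFF (horizontal axis) of the brightest tested probe of the genes reported from the 6 lists around the IGF axis (rows), red where called higher, blue where called lower and grey where not called. Grb14 (-2.47) and Dusp4 (2.46) lie farthest out, the FoxO row has 5 blue points and no red one, and the points of Igfals and Akt2 are fitted values of genes not above background in hSRY-ON.

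Markers of several cell types moved with the groups, and since the samples were whole hearts, a change in the number of cells of a type and a change of RNA per cell cannot be told apart. The counts below stand beside 14.9% called higher and 13.9% called lower over all tested genes. Of 9 macrophage markers 6 were higher and none lower (5 of 8 without Cd163, which passed the filter only through the hSRY-ON arrays), with summed normalized intensities of 3880 to 4910 in the controls against 8520 to 9060 in the hSRY-ON hearts. The tested hepatocyte markers were Ahsg, which was higher by 3.07 (adjusted p = 0.00108), and Ttr, which was at least 3.87-fold higher but passed the filter only through the hSRY-ON arrays. Their sum was 219 to 288 against 1100 to 2970, while Alb, Afp, Fgb, Serpina1a and Tat were detected on no array. Of 7 mural cell markers 2 were higher and 1 lower, and the sum went from 28200 to 34000 up to 40800 to 44600, although the median difference of the list was -0.42. The mural sum was mostly Acta2 (means of 14.74 and 15.27). Acta2, Tagln and Cspg4 had positive differences (0.53, 1.81 and 0.47, the last not called). Myh11, Pdgfrb, Rgs5 and Notch3 had negative ones (-0.42, -0.43, -0.57 and -0.49), of which only that of Notch3 was called. Cardiomyocyte markers had 4 of 9 lower and none higher (199000 to 212000 against 194000 to 203000), and endothelial markers 4 of 8 lower and 1 higher (30900 to 34400 against 25900 to 29000), with Kdr detected on no array. The cardiomyocyte sum rests mostly on Myl2, Myl3 and Nppa, which lay near the top of the measured range. Myl2 was at 15.37 and Nppa at 15.42 in every hSRY-ON heart, so that sum could hardly show a change. Fibroblast markers, 1 of 9 of which was higher (Tcf21, 0.76) and none lower, had overlapping sums of 36600 to 39400 and 34100 to 37600. Dcn (-0.30) and Lum (-0.43) were below the controls in every hSRY-ON heart but not called. The other Dcn probe was called lower (-0.90, adjusted p = 0.0108 by limma). The part of these shifts in the values of the IGF axis genes was not tested.

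Smaller lists gave mixed counts of few genes each, beside the same 14.9% called higher and 13.9% called lower over all tested genes. Adipocyte markers had 2 of 4 higher, Adipoq and Ucp1 (sums of 1870 to 2640 and 1100 to 3660), and Ucp1 was already at 8.88 in replicate 3 of hSRY-OFF beside 4.64 and 5.03 in the other controls. Cidea was below the controls in every hSRY-ON heart but not called (-1.05, adjusted p = 0.0691), and Cfd was not called either (1.26, adjusted p = 0.0818). Fabp4 was detected on 2 hSRY-OFF arrays and on no hSRY-ON array and was not tested. Mesothelial markers had 1 of 4 higher (1680 to 2130 and 2050 to 2230), thymocyte markers had 1 of 3 lower (130 to 163 and 126 to 142), with Cd3e, Cd8a and Rag1 detected on no array, and erythroid markers had 1 of 5 lower (49100 to 61300 and 50900 to 55500). The erythroid sum was mostly Hba-a1, at the top of the measured range (15.49 in every hSRY-ON heart), where a change could hardly show.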

How the data were processed

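Hearts of 3 hSRY-ON and 3 hSRY-OFF mice were grouped by their labels. The authors deposited mean bead intensity values per probe and array, not normalized, and a detection p-value for each, the chance of such a signal among negative-control beads. The software behind them and a genome build are not given in the sources used here. The methods name the R package TCC without settings, and the submitters' processing notes name limma. In the present work, R 4.3.3 and limma 3.58.1 were used: background was removed with neqc, whose control distribution was inferred from the detection p-values (offset 16), followed by quantile normalization and log2. Probes with a detection p-value under 0.05 on 3 or more of 6 arrays were tested (12970 of 25697, 9660 genes), with lmFit and eBayes, group as the only term, two-sided, and Benjamini-Hochberg adjustment over all of them. In all, 1788 probes (13.8%) were higher and 1779 (13.7%) lower in hSRY-ON. A gene was read by its brightest tested probe. Where a group had no array above background, the fold is a lower bound from the group means on background-corrected intensities. It takes no account of the spread between hearts, and the adjusted p beside it is that of the fitted difference. Summed list levels add the linear normalized intensities of the tested genes' brightest probes.

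No pair of arrays held identical values. Signal over background stands for depth on an array, and the number of arrays limits the precision. The members and the gene lists were chosen with earlier results of these data known, so the counts support nothing by themselves. All member genes with all their probes are named, in each pathway list the called gene that rose most and the one that fell most, every called gene of the IGF partner and receptor lists, and, after their values were seen, the other called FoxO genes, Ddit4, Tsc2, Sesn1 and the uncalled genes given with values. The 10 alternatives in background correction, normalization, filter, variance and pairing, and leaving out each heart, were tried. The steps were tested on simulated data. Promoter windows are those of NCBI RefSeq on GRCm38.p6, matched by symbol for all 10 members. Python 3.11.15 with matplotlib 3.10.9 made the figures. The other organs of the study were not analysed here, and 1 gene of the pathway lists is in the counts but is not reported here.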

Additional observations from a re-analysis of the deposited data

How the results depend on the processing

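Of 215 values of the 14 member probes recomputed under 16 alternatives, 197 kept direction and side of the threshold, 7 lost the call, 10 gained one and 1 reversed, Igfbp7, which was -0.077 (adjusted p = 0.729) without hSRY-OFF replicate 3 and ranged from -0.077 to 0.31 when 1 heart was left out. The number of members called higher was 3 to 5 over all settings. Members called lower were 0, except for 1, Igfbp4, with no background correction and 1, again Igfbp4, with intensity trend and robust variance. With no normalization between arrays, where the median difference of all probes was -0.12, 731 probes were called higher and 1166 lower (38.5% higher beside 50.1%), and 7 pathway genes were called higher. Relative to that median, Igfbp3 was at 2.11, Igf1r at 1.23 and Igf2r at 0.60. Leaving out 1 heart gave 1081 to 1821 probes higher and 1061 to 1848 lower, 3 to 4 members higher and 0 lower, 9 to 14 pathway genes higher and 10 to 14 lower. Without hSRY-OFF replicate 1, 1145 probes were higher, 1061 lower and 9 pathway genes higher, and without hSRY-ON replicate 1, 1081 were higher and 1174 lower. Of 434 values of the 28 called pathway genes, 383 kept the call and 51 lost it, and none reversed. Araf, Ddit4, Dusp6 and Tsc2 kept theirs in 9, 9, 10 and 10 of 16 alternatives. The causes were not tested. Same-numbered hearts did not deviate together (correlations of -0.02, 0.04 and -0.07, beside -0.063 to 0.093 for hearts of unlike number). This gave no sign of pairing by number, but with 3 hearts per group it cannot exclude one. With the replicate number as a block, 1420 probes were higher and 1422 lower, 4 members were higher and 0 lower, and 12 pathway genes were called in each direction. Signal over background limits Igfbp2, the second Igf1 probe, Igfals, Akt2, Grb14, Foxo6 and Dusp4.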
